A study of Homo sapiens with 9 samples.

Results

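The genes described here carry symbols of proteins of the human mitochondrial ribosome: MRPL or MRPS, a number and an optional letter A to C. Among them MRPS36 is not a subunit of this ribosome, and 5 subunits with other names are left out, as described below. The rule found 78 rows among the 61853 rows of the count table, 49 of them MRPL and 29 MRPS genes, on 21 chromosomes. All 78 were tested and passed the filter on low counts, and the lowest count of any of them in any library was 143. The cells were 293T, a widely used line derived from human embryonic kidney and transformed with the SV40 large T antigen. The knockdown cells received DIS3-sh1, an shRNA (a short hairpin RNA that lowers a chosen transcript) against DIS3, and the control cells, labelled wild type, received a Scramble shRNA. Each group had 3 replicates, and the labels give no time after treatment. A group with another shRNA to the same gene, DIS3-sh2, was not analysed here, so the values come from a single shRNA, and effects of this hairpin on other transcripts cannot be told apart from those of DIS3 loss. DIS3 is a catalytic exonuclease of the nuclear RNA exosome, and the study was set up to look at circular RNAs after DIS3 loss. The study's libraries were made from RNA depleted of ribosomal RNA, with no selection for poly(A) tails.

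The mitochondrial ribosome makes the few membrane proteins that mitochondrial DNA encodes, all of them subunits of the respiratory chain and the ATP synthase. Its ribosomal RNAs come from mitochondrial DNA, but every protein subunit is encoded in the nucleus, translated in the cytosol and imported, so that many scattered nuclear genes supply a single machine. Some subunits have a counterpart in the bacterial ribosome and sit around its conserved RNA core, and others are specific to mitochondria and lie mostly on its surface.

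DIS3 itself had 26.6, 27.8 and 27.9 CPM (counts relative to library size, scaled by TMM) in the DIS3-sh1 libraries, against 176, 186 and 177 CPM in the Scramble libraries, a log2 fold change of -2.71 ± 0.04 (SE). Library totals were between 19800892 and 21100677 counts in DIS3-sh1 and between 20722775 and 23532148 counts in Scramble. DIS3-sh1 replicate 1 stood apart from the other DIS3-sh1 libraries, with a chi-square per degree of freedom over genes of 5.24 and 5.30, against 1.61 between replicates 2 and 3 and 1.85 to 1.92 among the Scramble libraries. Of the line's markers, VIM had 1295 CPM in DIS3-sh1 and 1221 CPM in Scramble, KRT18 59.2 and 48.7, LIN28B 103 and 172, KRT8 32.6 and 4.64, and PAX2 4.33 and 1.66. The blood, muscle and liver markers PTPRC, CD3E, MYH7 and ALB were at or near 0, at 0.225 CPM or less on average in either group. The labels do not say that the replicates were separate cultures, so p-values measure the spread between these libraries, which may be technical. In bulk RNA of this kind, fewer cells of a type and less RNA per cell cannot be told apart, and CPM values are relative to the rest of the library.

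Most mitochondrial ribosomal protein genes were lower after DIS3 knockdown, by modest amounts. By edgeR's quasi-likelihood test (Benjamini-Hochberg adjusted p under 0.05 over all 19591 tested genes), 58 of the 78 fell (74.4%), 5 rose and 15 were not called. Over all tested genes 32.6% fell and 34.5% rose (67.0% called in either direction). Among protein-coding genes 38.7% fell and 36.2% rose (74.9% in either direction). Among protein-coding genes with a mean CPM within the members' range 45.8% fell and 33.2% rose (79.0% in either direction). The members' share of falls was thus above each of these backgrounds, and their share of rises below. Their median log2 fold change was -0.36 (quartiles -0.56 and -0.12), beside 0.02 over all tested genes, -0.01 over coding genes and -0.08 over coding genes of like level. Of the 58, 2 fell by 2-fold or more and 16 by 1.5-fold or more, while 1 rose by 1.5-fold or more. Log2 fold changes between -1.4 and -1.2 held 1.28% of members and 0.67% of coding genes. Those between -1.2 and -1.0 held 1.28% and 1.5%, so falls of this size were rare among coding genes too. The members' share was higher between -1.0 and -0.8 (6.41%, against 3.08% of coding genes) and between -0.8 and -0.6 (11.5%, against 6.41%). The 3 DIS3-sh1 libraries did not overlap the 3 Scramble libraries for 68 members, lower for 61 and higher for 7, where 69.8% of all tested genes and 80.1% of coding genes of like level did not overlap. Upper-quartile scaling in place of TMM gave 49 lower and 8 higher members and a median of -0.28, and leaving out DIS3-sh1 replicate 1 gave 58 lower and 4 higher members and a median of -0.33.

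**Figure D1:**
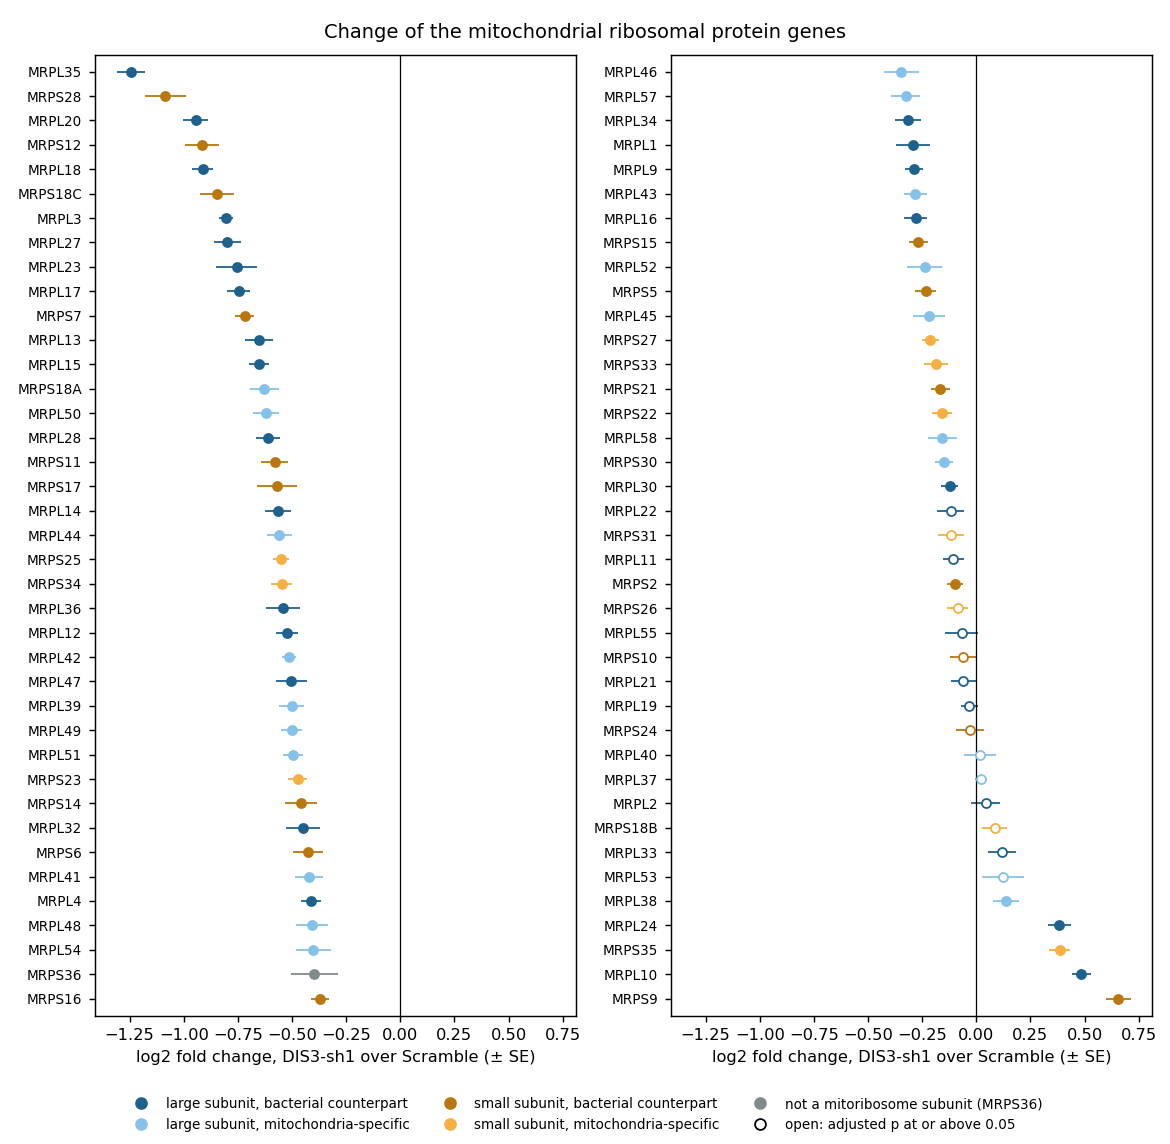
Log2 fold change of each of the 78 genes, DIS3-sh1 over Scramble, with its SE (horizontal bars), ordered from the strongest fall (top left) to the strongest rise (bottom right) and coloured by subunit and ancestry. Filled points passed the test (58 lower, 5 higher), and the open points, all close to 0, did not (15).

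**Figure D2:**
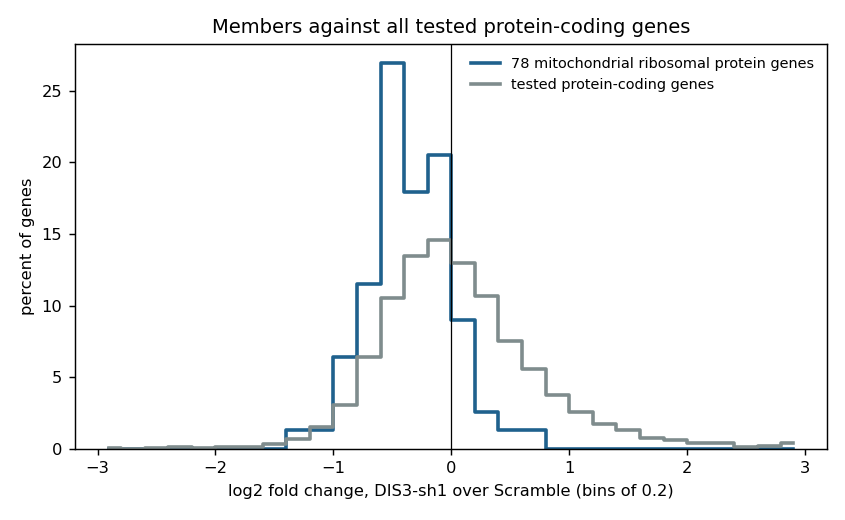
Share of genes in bins of log2 fold change (DIS3-sh1 over Scramble), for the 78 mitochondrial ribosomal protein genes and for the 13816 tested protein-coding genes. The members peak between -0.6 and -0.4, where 21 of them lie (26.9%, against 10.5% of coding genes), and none lies above 0.8.

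The strongest falls were in proteins with bacterial counterparts. MRPL35 (chromosome 2, bases 86199355 to 86213794 of GRCh38, plus strand), a protein of the large subunit's RNA core, had 19.5, 19.1 and 19.0 CPM in DIS3-sh1, against 48.3, 46.2 and 41.8 CPM in Scramble, a log2 fold change of -1.24 ± 0.07 (SE, edgeR adjusted p = 5.12e-17). Every DIS3-sh1 library was well under every Scramble library, and the fall is the largest among the 78 members. MRPS28, a small-subunit protein, had 8.15, 7.13 and 7.64 CPM in DIS3-sh1, against 15.7, 16.5 and 16.5 CPM in Scramble (log2 fold change -1.09 ± 0.09, edgeR adjusted p = 1.08e-11). The groups again lay far apart, at a low level. Part of the exons of MRPS28 (35.8%) is shared with another gene on the same strand, ENSG00000276418. MRPL20, whose bacterial counterpart acts early in assembly of the large subunit, had 26.2, 24.2 and 24.0 CPM in DIS3-sh1, against 47.1, 48.4 and 47.9 CPM in Scramble (-0.94 ± 0.06, edgeR adjusted p = 3.07e-15). The spread within each group was small beside the gap between them.

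MRPS12, the small-subunit protein at the decoding centre, had 16.4, 16.3 and 13.2 CPM in DIS3-sh1, against 28.0, 30.3 and 28.1 CPM in Scramble (log2 fold change -0.91 ± 0.08, edgeR adjusted p = 9.12e-12). DIS3-sh1 replicate 3 was the lowest, and the groups did not overlap. MRPL18, a protein of the central protuberance from whose transcripts a cytosolic form is also made under heat stress, had 36.2, 38.3 and 37.2 CPM in DIS3-sh1, against 69.8, 72.1 and 68.3 CPM in Scramble (-0.91 ± 0.05, edgeR adjusted p = 1.08e-16). Replicates of either group lay close together. MRPL3, which reaches towards the peptidyl transferase centre, where peptide bonds form, is the most abundant of the strongly reduced members. It had 122, 127 and 129 CPM in DIS3-sh1, against 221, 223 and 216 CPM in Scramble (-0.80 ± 0.03), and its edgeR adjusted p of 5.02e-20 was the smallest of the 78. MRPL27, also of the large subunit's core near the peptidyl transferase centre, had 24.4, 25.5 and 25.2 CPM in DIS3-sh1, against 41.1, 46.6 and 42.9 CPM in Scramble (-0.80 ± 0.06, edgeR adjusted p = 6.64e-13). Each of these genes kept its call under all 12 alternative settings.

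**Figure D3:**
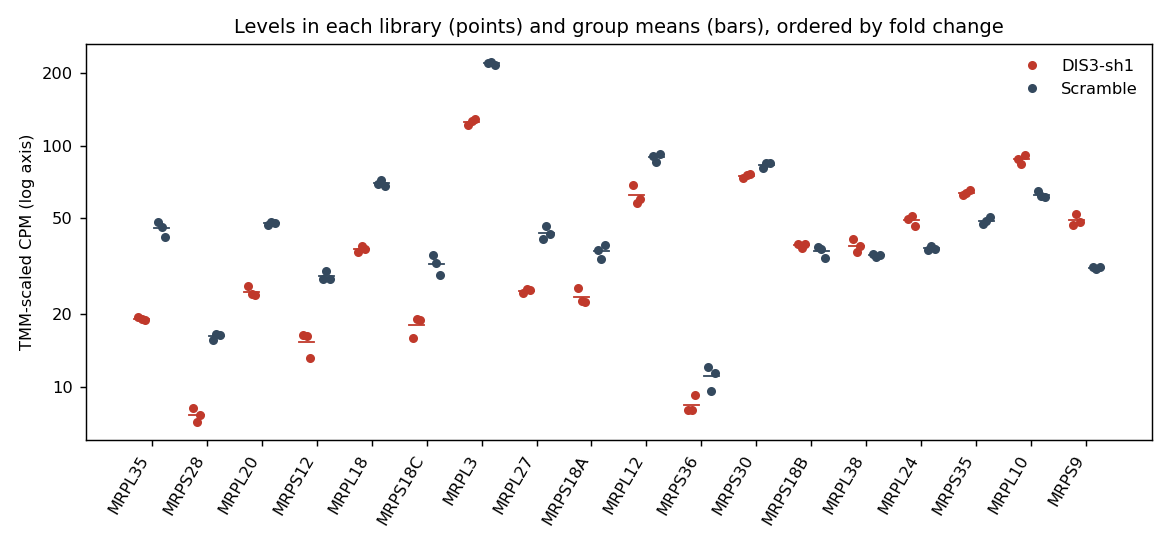
TMM-scaled CPM (log axis) in each library (points) and group mean (bars), DIS3-sh1 left of Scramble, for 18 genes ordered by fold change. MRPL35 at the left sits near 19 CPM in all DIS3-sh1 libraries and above 41 CPM in all Scramble libraries, while MRPS9 at the right is higher in every DIS3-sh1 library.

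Against this trend 5 members rose, and 4 of them kept the call under all 12 alternatives. MRPS9 (chromosome 2, bases 105037983 to 105099960 of GRCh38, plus strand), a small-subunit protein whose bacterial counterpart reaches the peptidyl-tRNA, had 47.0, 52.3 and 48.5 CPM in DIS3-sh1, against 31.4, 30.8 and 31.5 CPM in Scramble. Its log2 fold change was 0.66 ± 0.06 (SE, edgeR adjusted p = 7.97e-12), with all DIS3-sh1 libraries above all Scramble libraries. MRPL10, the base of the stalk that recruits translation factors, had 88.1, 84.3 and 91.4 CPM in DIS3-sh1, against 64.7, 62.2 and 61.7 CPM in Scramble (0.48 ± 0.04, edgeR adjusted p = 2.71e-11). MRPS35, a mitochondria-specific protein of the small subunit, had 62.3, 63.5 and 65.5 CPM in DIS3-sh1, against 47.4, 48.7 and 50.6 CPM in Scramble (0.38 ± 0.05, edgeR adjusted p = 2.27e-08). Neither gene's groups overlapped. MRPL24, which lies by the exit of the peptide tunnel, had 49.6, 51.2 and 46.6 CPM in DIS3-sh1, against 37.1, 38.6 and 37.3 CPM in Scramble (0.38 ± 0.05, edgeR adjusted p = 2.30e-07). MRPL38, a mitochondria-specific protein of the central protuberance, had 41.3, 36.2 and 38.3 CPM in DIS3-sh1, against 35.5, 34.7 and 35.2 CPM in Scramble (0.14 ± 0.06, edgeR adjusted p = 0.0399). The highest of its DIS3-sh1 values is that of replicate 1, and its call was kept in only 3 of the 12 alternatives. Without DIS3-sh1 replicate 1 its log2 fold change was 0.09 and its adjusted p 0.193, and the adjusted p ran from 0.0508 to 0.193 over the 9 settings that lost the call.

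By subunit, 38 of the 51 large-subunit genes fell and 3 rose, which left 10 with no call and a median log2 fold change of -0.40. Among the 26 small-subunit genes, 19 falls, 2 rises and 5 genes with no call came with a median of -0.25. Genes with a bacterial counterpart had a median of -0.42 (34 of 46 fell, 3 rose), and mitochondria-specific genes one of -0.28 (23 of 31 fell, 2 rose). These medians were not tested against each other, and each group's share of falls exceeded the 38.7% of coding genes.

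Within the large subunit, the 30 proteins with bacterial counterparts gave 21 falls, 2 rises and 7 genes with no call, and a median log2 fold change of -0.43. Beyond those above, MRPL23 (log2 fold change -0.76) and MRPL17 (-0.75), both at the tunnel exit, MRPL13 (-0.65), MRPL15 (-0.65) and MRPL28 (-0.61) fell furthest. MRPL2, a core protein by the peptidyl transferase centre, was not called at 0.04, and MRPL19 was not called at -0.03. The 21 mitochondria-specific proteins of the large subunit gave 17 falls, 1 rise and 3 genes with no call, with a median of -0.35. MRPL50 (-0.62), MRPL44 (-0.56) and the abundant MRPL42 (-0.52) fell, and MRPL37, the member with the highest level, was not called at 0.02.

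In the small subunit, 13 of the 16 proteins with bacterial counterparts fell and 1 rose, with a median log2 fold change of -0.40. MRPS7 (-0.72), a primary RNA-binding protein of the subunit's head in bacteria, MRPS11 (-0.58) and MRPS17 (-0.57) followed MRPS28, MRPS12 and MRPS18C. The 10 mitochondria-specific ones gave 6 falls, 1 rise and 3 genes with no call, and their median of -0.17 was the smallest change of the 4 groups. MRPS25 (-0.55), MRPS34 (-0.55), which is needed for a stable small subunit, and MRPS23 (-0.47) fell. With upper-quartile scaling this group had 4 falls and 2 rises.

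Functional sites of the large subunit were mixed in direction. Among coding genes of the members' level 45.8% fell. The share of falls was under this at the stalk and its base, and over it at the tunnel exit and central protuberance. With 5 or 6 genes per site, these shares were not tested. Of 6 proteins at the tunnel exit, MRPL17, MRPL23, MRPL45 and MRPL47 fell, MRPL24 rose and MRPL22 was not called at -0.12. Of 5 proteins of the stalk and its base, MRPL12 and MRPL54 fell, MRPL10 rose, and MRPL11 (-0.11) and MRPL53 (0.12) were not called. MRPL12, the stalk protein that contacts the translation factors, had 68.7, 58.0 and 60.4 CPM in DIS3-sh1, against 90.7, 85.8 and 92.3 CPM in Scramble, a log2 fold change of -0.52 ± 0.05 (SE, edgeR adjusted p = 1.01e-10). MRPL12 and MRPL10, which bind each other in the stalk, thus had changes of opposite sign, with no overlap of the groups in either gene. Of 6 proteins of the central protuberance, MRPL18, MRPL46, MRPL48 and MRPL58 fell, MRPL38 rose and MRPL40 was not called at 0.02. The fall of MRPL58, a peptidyl-tRNA hydrolase built into the ribosome, was small (-0.16 ± 0.07, edgeR adjusted p = 0.0346). Its call was lost in 5 of the 12 alternatives, among them those without DIS3-sh1 replicate 2 (adjusted p = 0.145), without DIS3-sh1 replicate 3 (0.0871) and without Scramble replicate 1 (0.157).

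The MRPS18 paralogs, 3 relatives of a single bacterial protein that take different places in the ribosome, differed in their changes. MRPS18C, the small-subunit form in the place of the bacterial protein, had 15.9, 19.2 and 19.0 CPM in DIS3-sh1, against 35.3, 32.7 and 29.0 CPM in Scramble (log2 fold change -0.85 ± 0.08, edgeR adjusted p = 4.82e-11). MRPS18A, which sits in the large subunit in spite of its name, had 25.7, 22.7 and 22.5 CPM in DIS3-sh1, against 37.1, 33.8 and 38.7 CPM in Scramble (-0.63 ± 0.07, edgeR adjusted p = 1.33e-09). MRPS18B, the mitochondria-specific form of the small subunit, had 39.3, 37.7 and 39.3 CPM in DIS3-sh1, against 38.0, 37.4 and 34.2 CPM in Scramble (0.08 ± 0.06, edgeR adjusted p = 0.196). The groups overlapped for MRPS18B alone, and the differences between the paralogs' changes were not tested. With upper-quartile scaling MRPS18B was called higher (0.16, adjusted p = 0.0125).

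Names and places also part for MRPS30 and MRPS36. MRPS30, a large-subunit protein related to MRPL37, had 73.5, 76.0 and 76.4 CPM in DIS3-sh1, against 81.0, 84.7 and 84.6 CPM in Scramble (log2 fold change -0.15 ± 0.04, edgeR adjusted p = 0.0024). The groups did not overlap, but upper-quartile scaling lost the call (-0.07, adjusted p = 0.15). MRPS36, which carries the ribosomal name but is a subunit of the alpha-ketoglutarate dehydrogenase complex of the citric acid cycle, had 8.03, 7.98 and 9.23 CPM in DIS3-sh1, against 12.1, 9.60 and 11.4 CPM in Scramble (-0.40 ± 0.11, edgeR adjusted p = 0.00173). Scramble replicate 2 lay just above the highest DIS3-sh1 library.

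The members' CPM summed to 3502, 3502 and 3538 in the DIS3-sh1 libraries, against 4388, 4393 and 4338 in the Scramble libraries. The mean sum was 3514 ± 20.9 CPM in DIS3-sh1 and 4373 ± 30.4 CPM in Scramble (SD, n = 3 each), a change of -19.6%. Large-subunit genes summed to 2239 ± 11.2 CPM in DIS3-sh1 and 2836 ± 16.6 CPM in Scramble (-21.1%), and small-subunit genes to 1267 ± 11.5 CPM in DIS3-sh1 and 1526 ± 19.2 CPM in Scramble (-17.0%). The summed large-subunit level over the small-subunit level was 1.76, 1.78 and 1.76 in DIS3-sh1, against 1.84, 1.87 and 1.87 in Scramble, so the balance of the subunits' messages was lower in all 3 DIS3-sh1 libraries. These sums are descriptions with no test.

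Per kb of exon, levels of different genes can be set side by side. The members spanned 2.34 to 93.9 CPM per kb in DIS3-sh1 (median 13.7) and 2.98 to 92.5 CPM per kb in Scramble (median 17.0), although the ribosome holds its proteins in fixed ratios. MRPL37 was the highest, with 93.9 CPM per kb in DIS3-sh1 and 92.5 in Scramble, and MRPL46 the lowest, with 2.34 in DIS3-sh1 and 2.98 in Scramble. MRPL12 (60.7 in DIS3-sh1, 87.2 in Scramble), MRPS34 (54.8 and 80.1) and MRPL3 (46.5 and 81.2) followed MRPL37 in level. In order of level MRPL18 stood at place 17 of the 78 in DIS3-sh1 and at place 7 in Scramble, and MRPL35 at place 71 in DIS3-sh1 and at place 55 in Scramble. The lengths are unions of all annotated exons, so genes with long unused exons are placed too low. Across the 78 genes the log2 fold change had a Spearman correlation of -0.04 with exon length and 0.10 with mean CPM, and across coding genes one of 0.06 with length and -0.31 with mean CPM. All points of each correlation share the same 6 libraries.

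**Figure D4:**
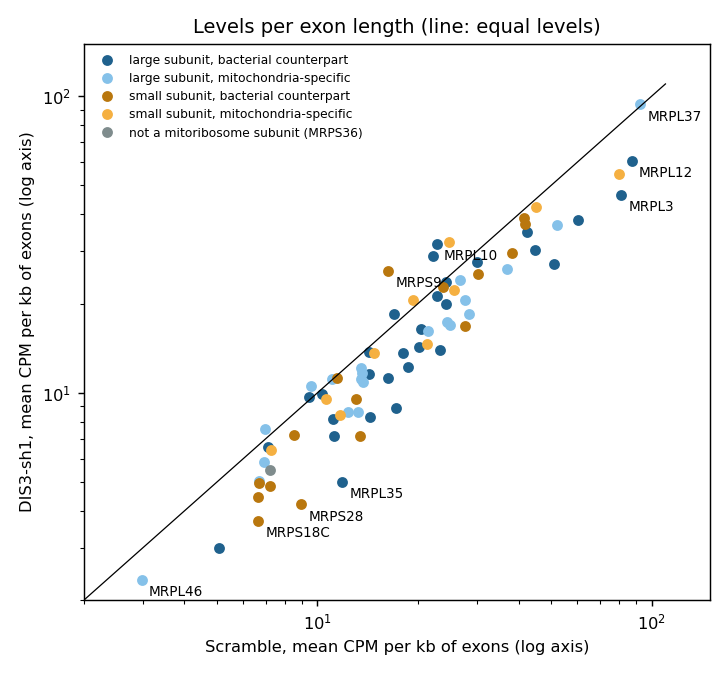
Mean CPM per kb of exons in DIS3-sh1 (vertical, log axis) against Scramble (horizontal, log axis) for the 78 genes, coloured by subunit and ancestry, with the line of equal levels. Most points lie below the line, MRPL35 and MRPL18 among the farthest, and MRPS9 and MRPL10 lie above it.

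Many of these genes start back to back with a neighbour on the other strand, so that both are transcribed away from a shared start region. A coding gene on the opposite strand started between 1000 bases upstream and 500 bases downstream of the member's own start for 23 of the 78 (29.5%), against 1915 of 13816 tested coding genes (13.9%). In 13 of the 23 distinct pairs (56.5%) both genes fell, in none did both rise, and in 3 they changed in opposite directions. Over all 986 such pairs of tested coding genes, both fell in 198 (20.1%) and both rose in 107 (10.9%). The pair changed in opposite directions in 278 (28.2%). The members of these pairs mostly fell in any case, and the neighbours alone gave 13 falls, 5 rises and 5 genes with no call, with a median log2 fold change of -0.16. Among coding genes 38.7% fell, with a median of -0.01, and among those of the members' level 45.8% fell, with a median of -0.08. MRPL32 is counted with both PSMA2 and ENSG00000256646, which both fell. MRPL46 and MRPS11, both members, start 34 bases apart and both fell, so a member is also counted among the neighbours.

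MRPL18 starts 63 bases from TCP1, a subunit of the cytosolic chaperonin. TCP1 had 249.9 ± 1.21 CPM in DIS3-sh1 and 530.5 ± 8.41 CPM in Scramble (SD, n = 3 each). Its log2 fold change was -1.09, beside -0.91 for MRPL18. TWNK, the mitochondrial DNA helicase that starts beside MRPL43, fell by 0.91 on the log2 scale, and NDUFS6, a subunit of respiratory complex I beside MRPL36, fell by 0.69. Both members of each of these pairs were lower. MRPL27 starts 6 bases from EME1, a subunit of a structure-specific DNA endonuclease, which had 47.0 ± 2.01 CPM in DIS3-sh1 and 24.0 ± 0.90 CPM in Scramble, a log2 fold change of 0.97 beside -0.80 for MRPL27. SARS2, the mitochondrial seryl-tRNA synthetase beside MRPS12, was not called at -0.02. Genes that share a start region therefore did not always change together. The other pairs of opposite sign were MRPS27 with PTCD2, a mitochondrial RNA-binding protein (0.35), and MRPL54 with APBA3 (0.36), whose call was lost without DIS3-sh1 replicate 1 (adjusted p = 0.0549). Non-coding antisense transcripts started beside 3 members that fell, and all 3 rose, where 46.5% of the 1118 tested antisense genes rose. They were ENSG00000262049 beside MRPL12 (0.51), DNAJC9-AS1 beside MRPS16 (0.62) and MRPS30-DT beside MRPS30 (0.65), at 2.94 to 9.02 CPM on average in DIS3-sh1 and 1.89 to 6.31 CPM in Scramble. The symbol DNAJC9-AS1 also belongs to another antisense row, which overlaps the exons of MRPS16, had 0.675 CPM in DIS3-sh1 and 0.462 CPM in Scramble and was not called (0.53, edgeR adjusted p = 0.245). The call of MRPS30-DT was lost with DESeq2 (adjusted p = 0.0653) and without Scramble replicate 1 (0.0657). Upstream antisense transcripts are known targets of the nuclear exosome.

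**Figure D5:**
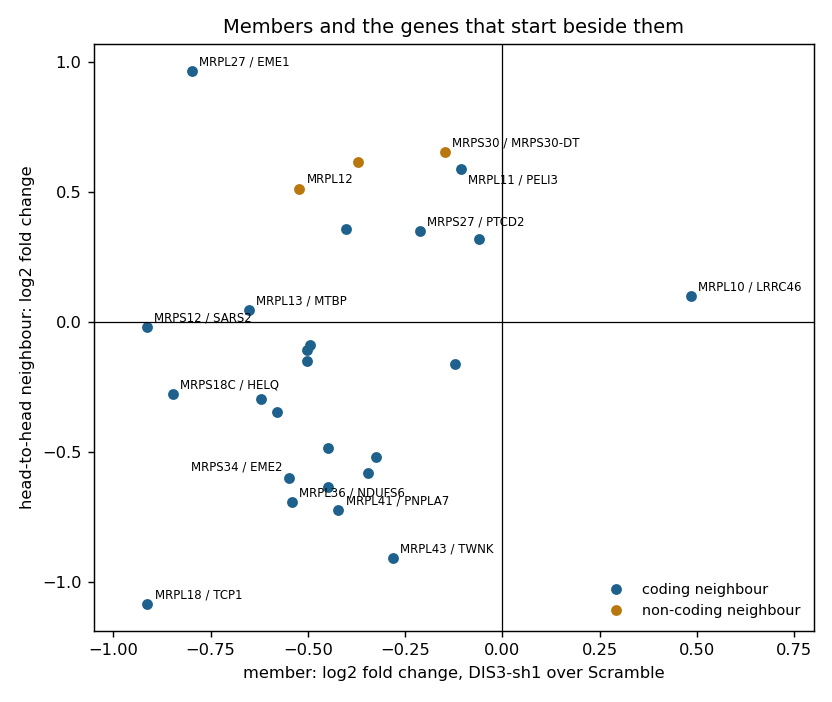
Log2 fold change (DIS3-sh1 over Scramble) of the gene that starts beside a member (vertical) against that of the member (horizontal), for coding and non-coding neighbours. MRPL18 with TCP1 lies at the bottom left, MRPL27 with EME1 at the top left, and all 3 non-coding neighbours lie above 0.

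Promoters of many mitochondrial ribosomal protein genes are known to carry sites for ETS factors such as GABP, for NRF1 and for YY1. RefSeq promoter windows (GRCh38.p14, 250 bases before the start to 50 after) were matched for 69 of the 78 genes and searched on both strands for CCGGAAG (ETS), GCGCA, any base and GCGC (NRF1), ATGGCGGC (YY1) and CACGTG (E-box), none of which contains another. ETS letters stood in 29 of 69 windows (42.0%), beside 10.7% of all 27305 windows and 18.7% of 10922 windows of tested coding genes. YY1 letters stood in 19 (27.5%, beside 3.21% and 6.07%), but only 3 of these lie upstream of the start, and the same letters spell a start codon followed by one for alanine. NRF1 letters stood in 8 (11.6%, beside 6.28% of all windows and 11.5% of coding ones) and the E-box in 6 (8.70%, beside 7.43% and 10.1%). ETS letters were about as common in the 52 members that fell (42.3%) as in the 17 that did not (41.2%). YY1 letters stood in 11 of the members that fell (21.2%) and in 8 of the others (47.1%). Upstream of the start they stood in only 2 and 1 of these, and the difference was not tested. The genes with no matched window, left out of these shares, include MRPL35 and MRPS28, which fell most, and MRPL10, which rose. A match is a description of letters and not a site.

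The stretches below, 5′ to 3′ on the gene's own strand, are upstream sequence outside annotated exons, shown to set the start regions of strongly reduced members beside that of the member that rose most. Counted back from the RefSeq start, the stretches cover bases 140 to 21 in MRPL20, 132 to 13 in MRPL3 and 62 to 1 in MRPL18. They cover bases 201 to 127 in MRPS18C and 206 to 87 in MRPS9, so their distances from the start differ. Capitals mark a match to one of the searched motifs. MRPL20 (chr1:1407314-1407433, minus strand) and MRPL3 (chr3:131502984-131503103, minus strand) both carry the ETS letters close to their starts, and MRPS18C (chr4:83455857-83455931, plus strand) carries the E-box. The MRPL18 stretch (chr6:159789750-159789811, plus strand) is the whole of the 62 bases between its start and that of TCP1 and holds none of the motifs. The MRPS9 stretch (chr2:105037863-105037982, plus strand) holds none either, but outside the stretches shown the MRPS9 window held the NRF1 and YY1 letters and the MRPS18C window the ETS letters, so the stretches do not show a difference in motifs between members that fell and the member that rose.
MRPL20: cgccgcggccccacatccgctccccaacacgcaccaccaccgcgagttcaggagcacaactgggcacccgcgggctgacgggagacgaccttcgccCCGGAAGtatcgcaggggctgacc
MRPL3: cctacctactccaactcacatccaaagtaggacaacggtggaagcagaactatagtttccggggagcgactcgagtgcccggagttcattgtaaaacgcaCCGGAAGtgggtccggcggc
MRPL18: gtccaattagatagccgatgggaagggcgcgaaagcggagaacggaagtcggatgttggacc
MRPS18C: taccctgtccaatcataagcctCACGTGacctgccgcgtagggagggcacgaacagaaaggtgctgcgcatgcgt
MRPS9: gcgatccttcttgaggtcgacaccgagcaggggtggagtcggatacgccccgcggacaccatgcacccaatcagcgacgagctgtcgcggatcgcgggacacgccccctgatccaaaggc

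Exon overlap with other genes bears on some members, since the sources used here do not state whether strand was used in counting, and reads of overlapping genes may have been shared out or counted together. In the GENCODE 29 annotation 41 of the 78 share exon bases with another gene, and 12 share at least 20% of theirs. MRPL12 shares 68.2% with ENSG00000262660 on the same strand (log2 fold change -0.49, beside -0.52 for MRPL12), and MRPS28 shares 35.8% with ENSG00000276418 (-0.60). Both overlapping genes fell, as the members did. ENSG00000276418, on the same strand, had 13.9 CPM in DIS3-sh1 and 21.1 CPM in Scramble and fell less than MRPS28 (-1.09). MRPS18C shares 40.2% with ABRAXAS1 on the opposite strand, which rose (0.69), and MRPL43 shares 32.7% with SEMA4G on the opposite strand, which rose by 1.90. Here the overlapping gene moved the other way. MRPL38 shares 37.5% with ENSG00000267426, which rose (0.26), and MRPL53 shares 45.2% with CCDC142, which fell by 0.23. Their part in the members' values was not tested. Of 79 pseudogene rows named after 36 members, 52 had no count and 77 stayed under 1 CPM, 3 were tested and none was called by edgeR. MRPS31P5 had 7.26 ± 0.415 CPM in DIS3-sh1 and 6.18 ± 0.227 CPM in Scramble (SD, n = 3 each, edgeR adjusted p = 0.0768) and was called higher with upper-quartile scaling (0.32, adjusted p = 0.0188), and MRPS31P4 had 4.59 and 4.42 CPM. Their parent MRPS31 was itself not called (-0.12).

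Outside the naming rule lie 5 further subunits of the particle. CHCHD1 (log2 fold change -0.75), GADD45GIP1 (-0.70), AURKAIP1 (-0.67) and PTCD3 (-0.18) fell. These falls made up 80.0% of the list, beside 45.8% of coding genes of the members' level. DAP3, a GTP-binding protein of the small subunit named after its values were seen, had 140.6 ± 1.66 CPM in DIS3-sh1 and 136.0 ± 1.58 CPM in Scramble (SD, n = 3 each), was not called at 0.05, and was called higher with upper-quartile scaling (0.13). The ribosomal RNAs of the same particle did not fall. MT-RNR1, the small-subunit RNA, had 498, 755 and 682 CPM in DIS3-sh1, against 212, 295 and 348 CPM in Scramble (log2 fold change 1.18 ± 0.27, edgeR adjusted p = 0.0171). MT-RNR2, the large-subunit RNA, had 582, 885 and 892 CPM in DIS3-sh1, against 331, 436 and 536 CPM in Scramble (0.86 ± 0.28, edgeR adjusted p = 0.0504). All DIS3-sh1 libraries were above all Scramble libraries for both RNAs, with wide spread within each group. Replicate 1 was the lowest library of each group for both RNAs. The call of MT-RNR1 was lost without DIS3-sh1 replicate 2 (adjusted p = 0.0554), DIS3-sh1 replicate 3 (0.058) or Scramble replicate 2 (0.0593). MT-RNR2 was called with DESeq2 (0.00572), with upper-quartile scaling (0.0387), with a replicate block (1.55e-05) and without DIS3-sh1 replicate 1 (0.031). Ribosomal RNA was depleted from these libraries, so its level also carries the efficiency of depletion in each, whose part in the result was not tested.

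Factors that build and run the mitochondrial ribosome were listed as well. The 29 assembly factors gave 18 falls, 3 rises and 8 genes with no call (62.1% lower, beside 45.8% of coding genes of the members' level), and a median log2 fold change of -0.25. MPV17L2, an inner-membrane protein that joins the assembly of the ribosome, had 9.65, 8.64 and 8.85 CPM in DIS3-sh1, against 22.1, 27.4 and 24.3 CPM in Scramble (-1.44 ± 0.09). FASTKD2, which binds the large ribosomal RNA (-0.58), NDUFAB1, the mitochondrial acyl carrier protein (-0.59), and the pseudouridine synthase TRUB2 (-0.52) fell too. The 3 that rose were RPUSD3 (0.51), a pseudouridine synthase, NOA1 (0.44), a GTPase, and TFB1M (0.30), which methylates the small-subunit RNA, and they were singled out after their values were seen. The 18 translation factors and related proteins gave 10 falls, 4 rises and 4 genes with no call (55.6% lower, beside the same 45.8%), and a median of -0.15, beside -0.08 for those coding genes. SLIRP, which binds mitochondrial messenger RNA with LRPPRC, had 26.4, 24.0 and 26.4 CPM in DIS3-sh1, against 52.4, 48.9 and 53.6 CPM in Scramble (-1.01 ± 0.06). GFM1, an elongation factor (-0.59), and MTRF1L, a release factor (-0.61), fell. OXA1L, the insertase that receives the new peptides at the tunnel exit, rose by 0.59, with 118, 118 and 122 CPM in DIS3-sh1, against 80.7, 79.0 and 78.3 CPM in Scramble. The other rises were TUFM, also an elongation factor (0.22), MTFMT (0.18) and LRPPRC (0.08), named after their values were seen. The call of MTFMT was lost with DESeq2 (adjusted p = 0.197), among other settings, and that of LRPPRC without Scramble replicate 3 (0.0554). Over the alternatives, assembly factors gave 17 to 18 falls and 3 to 6 rises. Translation factors gave 8 to 10 falls and 2 to 4 rises, with 2 rises without Scramble replicate 3.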

How the data were processed

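RNA of 293T cells, depleted of ribosomal RNA, was sequenced from stranded total RNA libraries, per the labels' protocols. The deposited table gives the authors' expected counts per gene (not always whole). Per the submitters' processing notes, featureCounts 1.5.1, SAMtools, HISAT2 2.1.0 and Bowtie2 2.3.5 were used with build hg38; their roles, the annotation and the use of strand are not given in the sources used here. The 6 columns whose names match the Scramble and DIS3-sh1 labels were used. A further 3 columns of sample values match no label and were not used, so DIS3-sh2 was not analysed here.

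Expected counts were rounded and tested in R 4.3.3 with edgeR 4.0.16 (TMM scaling, filterByExpr, robust quasi-likelihood F-test, two-sided, Benjamini-Hochberg adjustment over all 19591 tested genes, called below 0.05). Levels are CPM (counts relative to the TMM-scaled library size), and SDs are over 3 libraries. SEs were derived as the absolute log2 fold change over the square root of the test's F statistic. DESeq2 1.42.0 and other settings served as alternatives. The code was tested on simulated data. Symbols come from a table of gene names matched by Ensembl ID (61803 of 61853 rows), coordinates and exon unions from GENCODE 29 (GRCh38). Values per library are given for the 8 largest called falls, all called rises (at most 6), the MRPS18 paralogs, MRPL12, MRPS30 and MRPS36, and in companion lists for genes among the 4 smallest p and both ribosomal RNAs. Members and lists were chosen with earlier results of these data known. Over all tested genes, same-numbered libraries did not deviate together (correlations of 0.037, 0.014 and 0.010, under 0.1), so the numbers were not taken as pairs. Single genes such as the mitochondrial ribosomal RNAs may differ from this.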

Additional observations from a re-analysis of the deposited data

How the results depend on the processing

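All 12 alternatives kept the sign of every called member's change. Of the 58 falls, 49 were called under each alternative, as were 4 of the 5 rises. Falls numbered 49 with upper-quartile scaling and 56 to 59 when a library was left out, and rises numbered 8 and 4 to 5. With upper-quartile scaling MRPL52, MRPL45, MRPS33, MRPS21, MRPS22, MRPL58, MRPS30, MRPL30 and MRPS2 lost their calls, and MRPL37, MRPS18B and MRPL33 were called higher. That scaling put the median log2 fold change of all genes at 0.10, beside 0.02 with TMM. Without DIS3-sh1 replicate 3 the call of MRPL52 was lost (-0.15, adjusted p = 0.109), and MRPS2 lost its call without DIS3-sh1 replicate 2 (0.113) or Scramble replicate 1 (0.071). MRPL11 was called lower with RLE scaling, the replicate block, without small structural RNA genes and without Scramble replicate 2 (0.0261), and MRPL22 without Scramble replicate 3 (0.0428). The replicate block gave 59 falls and 5 rises. The cause of these differences was not tested. Alternatives for DIS3-sh2 were not run, since no column matches its labels.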

Other observations

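Genes of mitochondrial transcription and of RNA processing and turnover were mostly lower. Of 13 such genes 11 fell, none rose and 2 were not called (edgeR's quasi-likelihood test, adjusted p under 0.05 over all genes), with a median log2 fold change of -0.56, beside -0.36 for the mitochondrial ribosomal protein genes. The falls made up 84.6% of the list, beside 38.7% of all coding genes and 45.8% of coding genes within the members' range of level. The falls numbered 9 to 11 over the 12 alternatives, with 9 when DIS3-sh1 replicate 2 or 3 was left out. Upper-quartile scaling gave 9 falls and 1 rise. REXO2, a mitochondrial oligoribonuclease, had 21.3, 22.1 and 20.8 CPM in DIS3-sh1, against 38.3, 38.4 and 38.9 CPM in Scramble (-0.85 ± 0.06). PNPT1, the mitochondrial polynucleotide phosphorylase, fell by 0.76 on the log2 scale, ELAC2, which cuts tRNA 3′ ends, by 0.62, and TFAM, the factor that packages mitochondrial DNA, by 0.56. Falls were smaller in TEFM (-0.21) and in POLRMT (-0.15), whose groups overlapped. Both lost their calls in several alternatives, among them upper-quartile scaling (adjusted p = 0.195 and 0.254). MTERF2 (0.17) and PRORP (-0.002) were not called, and MTERF2 was called higher with upper-quartile scaling (0.25).

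Among 8 regulators known to act on such genes, 4 fell and 4 rose, beside falls in 45.8% and rises in 33.2% of coding genes of the members' level, so the share of falls was near that background. GABPB1, the beta subunit of the ETS factor GABP, had 15.7, 15.4 and 15.1 CPM in DIS3-sh1, against 33.3, 34.1 and 32.9 CPM in Scramble (-1.11 ± 0.07), while its DNA-binding partner GABPA rose (0.38 ± 0.06). PPRC1, a coactivator (-0.70), YY1 (-0.59) and NRF1 (-0.54) fell. GABPA was named after its values were seen. The remaining rises were in ESRRA (0.44), PPARGC1A (0.34) and MYC (0.12), also named after their values were seen. The call of PPARGC1A was lost with DESeq2 (adjusted p = 0.0899), without DIS3-sh1 replicate 2 (0.135) and without Scramble replicate 3 (0.0541).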
